A study of Mus musculus with 26 samples.

Results

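Egr1 peaks at gene starts are the subset of an Egr1 peak list, made from mouse liver 36 h after partial hepatectomy, whose centre lay within 1 kb of the start of a measured gene. Of 9895 Egr1 peaks, 449 (4.54%) met this rule and 9446 lay elsewhere. The 449 peaks stood at the starts of 464 of 20933 measured genes (2.22%), in 467 pairs of a peak and a gene. The other 10871 of 31804 gene rows were not searched, and peaks at their starts, if any, count as elsewhere. The values of the Egr1 list therefore chose the members, and peak scores, widths and positions are given as a description. The other readouts at these genes, C/EBP regions and RNA polymerase II (Pol II), came from other libraries.

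The study followed liver regeneration by chromatin immunoprecipitation and sequencing (ChIP-seq) in wild-type male C57BL6/J mice, 7 weeks old, in which 3 of 5 liver lobes had been removed. Antibodies were against Egr1 at 36 h, and against C/EBPalpha, C/EBPbeta and Pol II at 0, 3, 8, 16, 24, 36, 48 and 168 h. The resected lobes served as the 0 h tissue, so the 0 h sample is whole resting liver and every later sample is regenerating liver of animals that had undergone surgery. Livers of 5 mice were harvested for each time, and the sources used here do not say whether they were pooled. There was 1 library for each antibody and time, so no difference between times has a replicate check and no p-value is given. An IgG mock sample at 0 h was not analysed here. The files hold no read counts, and depth is unknown. Coordinates and gene starts are those of the build mm9, and whether a peak lies in an exon, an intron or a UTR was not analysed here.

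Egr1 is a zinc-finger transcription factor of the immediate early class, made within minutes to hours of growth factor or stress signals, and it binds short GC-rich elements. In regenerating liver it is known for a role in the entry of hepatocytes into the cell cycle and in mitotic progression. C/EBPalpha and C/EBPbeta are related basic leucine zipper factors of hepatocytes, the first known for keeping metabolic genes on and restraining proliferation, the second for acute phase and proliferative responses. Pol II over a gene body is a measure of ongoing transcription.

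Marker genes matched the labelled tissue. At 36 h the 8 hepatocyte markers summed to 531 Pol II signal units per bp, and 8 of 8 lay above 0.5, the level used here to call a gene transcribed. The 8 measured Kupffer cell and macrophage markers summed to 2.14 with 3 above 0.5, and the 8 endothelial markers to 4.13 with 2 above 0.5. Lymphocyte markers summed to -0.89 (0 of 7 above 0.5), stellate cell and fibroblast markers to -2.04 (0 of 8) and cholangiocyte markers to -2.29 (0 of 7). Values below 0 arise because the deposited signal is signed. In whole tissue, fewer cells of a type and less signal per cell cannot be told apart.

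Of the 464 genes, 265 had a single RefSeq promoter window on the same chromosome, running from 250 bases before to 50 bases after the start in GRCm38.p6. Windows of 4 genes are printed because their peaks, centred inside the window, were among the highest-scoring of all (Vnn3), of those with GCGTGGGCG (D10Wsu102e, 1700012A16Rik) or of the listed genes (Cyp2b10). Capitals mark letters that match GCGNGGGCG, an EGR-type element, or TTGCNNAA, a C/EBP-type element, on either strand. Vnn3 and Cyp2b10 hold C/EBP letters, and D10Wsu102e and 1700012A16Rik hold EGR letters. RefSeq starts need not coincide with the starts in the study's files.
Vnn3, chr10:23851212-23851511, plus strand: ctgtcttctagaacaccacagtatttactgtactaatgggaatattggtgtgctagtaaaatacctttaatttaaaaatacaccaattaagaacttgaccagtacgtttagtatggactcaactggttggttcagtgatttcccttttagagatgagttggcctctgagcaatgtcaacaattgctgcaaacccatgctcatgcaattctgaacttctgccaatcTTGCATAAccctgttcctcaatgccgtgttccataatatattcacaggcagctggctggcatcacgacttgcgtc
Cyp2b10, chr7:25897408-25897707, plus strand: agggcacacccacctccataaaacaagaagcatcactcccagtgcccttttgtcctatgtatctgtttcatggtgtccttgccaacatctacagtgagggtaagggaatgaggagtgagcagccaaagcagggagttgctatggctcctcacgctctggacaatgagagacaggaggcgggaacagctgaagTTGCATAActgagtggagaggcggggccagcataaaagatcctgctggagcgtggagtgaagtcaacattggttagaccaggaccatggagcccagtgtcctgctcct
D10Wsu102e, chr10:83359971-83360270, plus strand: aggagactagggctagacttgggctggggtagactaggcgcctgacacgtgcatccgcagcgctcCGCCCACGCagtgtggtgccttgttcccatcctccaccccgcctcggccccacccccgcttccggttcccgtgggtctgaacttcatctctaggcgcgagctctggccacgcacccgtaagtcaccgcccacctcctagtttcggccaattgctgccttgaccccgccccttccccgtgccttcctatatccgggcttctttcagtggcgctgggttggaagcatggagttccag
1700012A16Rik, chr1:153424959-153425258, plus strand: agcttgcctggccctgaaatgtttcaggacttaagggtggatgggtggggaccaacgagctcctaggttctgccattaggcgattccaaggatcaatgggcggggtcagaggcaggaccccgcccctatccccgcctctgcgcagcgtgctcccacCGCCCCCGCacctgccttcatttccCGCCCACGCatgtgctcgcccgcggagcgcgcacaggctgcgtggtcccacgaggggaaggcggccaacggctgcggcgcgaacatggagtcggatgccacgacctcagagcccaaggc

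Vnn3, a member of the vanin family of pantetheine hydrolases, holds TTGCATAA with its first base at position -25 from the start. Its Egr1 peak scored 1522 and was centred 9 bp upstream of the start, and a region of both C/EBP factors lay there at all 8 times. Cyp2b10, a drug-metabolising cytochrome P450, holds the same 8 letters from position -58, with a peak score of 456 and C/EBP regions in 13 of the 16 lists. D10Wsu102e holds CGCCCACGC, which is GCGTGGGCG read on the other strand, from position -185. Its peak scored 1045 and no C/EBP list had a region there. 1700012A16Rik holds CGCCCCCGC from position -94 and CGCCCACGC from position -69, with a peak score of 737 and no C/EBP region in any list.

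EGR letters were more frequent at the starts with an Egr1 peak than at other starts, but most windows held none. GCGTGGGCG on either strand was present in 14 of 265 windows with an Egr1 peak (5.28%, Wilson 95% interval 3.17 to 8.67%), against 94 of 11307 other windows (0.831%) and 0.586% of all RefSeq windows. The broader GCGNGGGCG, which includes GCGTGGGCG, was in 37 windows with an Egr1 peak (14.0%), against 967 other windows (8.55%) and 5.33% of all RefSeq windows. The 37 contain the 14 and the 967 contain the 94, so this difference is not separate from that of GCGTGGGCG. Shares of the broader letters without GCGTGGGCG were not computed. Where the peak centre itself lay in the window (120 genes), these shares were 10% and 20.8%. C/EBP letters, TTGCNNAA, were in 51 windows with an Egr1 peak (19.2%, interval 14.95 to 24.4%), against 9.02% of other windows and 10.8% of all RefSeq windows. These intervals cover counting error only, and a match is a description of letters, not a binding site.

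Few Egr1 windows held both kinds of letters, and the overlap in other windows was not computed. TTGCNNAA was in 0 of the 14 windows with GCGTGGGCG and in 1 of the 37 with GCGNGGGCG (2.70%), against 19.2% of all 265 Egr1 windows. These counts are small and cannot show whether the low overlap is particular to Egr1 starts. Of the 14 genes with GCGTGGGCG, 10 had no C/EBP region in any of the 16 lists, and of the 37 with GCGNGGGCG 22 had none and 15 had one. TTGCNNAA was in 16.5% of Egr1 windows with no C/EBP region in any list and in 20.7% of those with one, against 7.89% and 11.5% of other windows. Among Egr1 starts with no C/EBP region in any list, 10 of 91 windows (11.0%) held GCGTGGGCG, against 0.783% of other starts with no C/EBP region. Among Egr1 starts with a C/EBP region in at least 1 list, 4 of 174 (2.30%) held it, against 0.937% of other starts with a C/EBP region. Among Egr1 starts with a region in all 16 lists the count was 0 of 43 windows, which allows a share of up to 8.20% (Wilson), while 17 of these 43 (39.5%) held TTGCNNAA, against 26.0% of 396 other starts with all 16. The 10 genes with GCGTGGGCG and no C/EBP region were 1700012A16Rik, 4930417M19Rik, A930001N09Rik, D10Wsu102e, Dcps, Dnajc17, Gm71, Med14, Plekhf1 and Rasgef1b. Dcps encodes the scavenger decapping enzyme of mRNA decay, Med14 a subunit of the Mediator complex that links transcription factors to Pol II, and Rasgef1b a guanine nucleotide exchange factor. Of the 14, 3 had Pol II above 0.5 at 36 h, a small count beside the 31.0% of all 464 Egr1 genes and 17.9% of all measured genes that did. Dcps had 2.19, 1.51 and 2.30 signal units per bp at 24, 36 and 48 h, Plekhf1 0.68, 1.49 and 1.69, and Rasgef1b 2.14, 1.58 and 1.65.

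The windows with an Egr1 peak were poorer in GC and in CpG than the others, with a median GC content of 52.7% against 58.7% and a median of 10 against 17 CpG dinucleotides per 300 bases. Of 6 further motifs searched on both strands, CCAAT was the one that differed most, in 52.1% against 38.5% of other windows (38.2% of all RefSeq windows). TATAAA was in 14.3% against 10.5% (14.8% of all RefSeq windows), and CACGTG in 10.9% against 8.98% (7.12%). GGGCGG was in 44.5% against 54.2% (35.2%), TGACG in 20% against 27.0% (20.6%), and CCGGAAG in 9.81% against 14.0% (9.12%). GGGCGG can overlap GCGNGGGCG by several bases. The 14 windows with GCGTGGGCG had a median GC content of 64.5%, so base composition moved with these letters, and its part in the shares was not tested.

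Peaks gathered just upstream of the start. The centre lay upstream of the nearest start for 277 of the 449 peaks (61.7%), and within 250 bp of it for 250 (55.7%). The median offset was -65.5 bp, and the 100 bp before the start held 82 centres, more than any other 100 bp step of the window. The start lay inside the peak for 366 peaks. One start lay within 1 kb for 431 peaks, while 18 peaks had 2 starts, on both strands in 14 cases, and these cannot be assigned to 1 gene. The peaks just inside the limit were at Ugcgl2 (994 bp, score 95.2) and Dusp16 (997 bp, score 119), and those just outside at Mex3c (1009 bp, score 65.9) and Lrrfip2 (1012 bp, score 51.5).

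**Figure D1:**
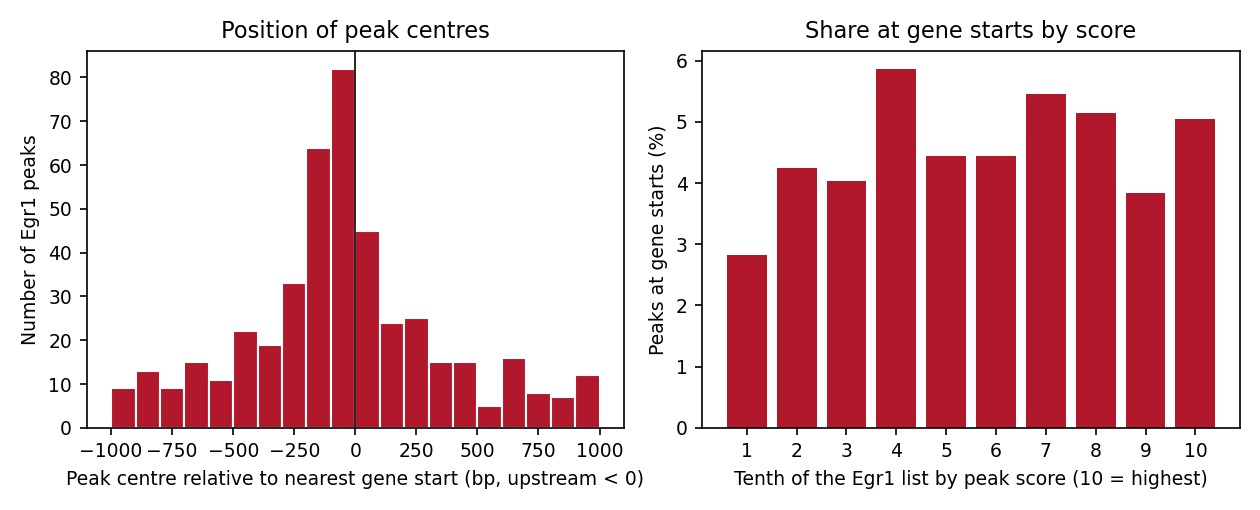
The left panel plots the number of Egr1 peaks (y axis) by the distance of their centre to the nearest gene start in bp (x axis, 100 bp steps, upstream below 0). The right panel plots the percentage of peaks at gene starts (y axis) in 10 equal groups of the Egr1 list by score (x axis), which ran between 2.82% and 5.87% with no steady order.

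Peak scores, which are the authors' and rank peaks within this list, had a similar spread at starts and elsewhere. The median score was 108 at gene starts, with quartiles of 73.1 and 188 and a highest value of 2108, against a median of 103, quartiles of 67.0 and 191 and a highest value of 3202 elsewhere. Peaks at starts were slightly wider, with a median width of 1112 bp against 990 bp elsewhere. Of 10 equal groups of the list by score, the lowest-scoring had 2.82% of its peaks at starts, and the others had up to 5.87% in no order. The score was not related to the distance from the start (Spearman's rho 0.04 over 449 peaks of 1 library).

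The highest score was at Fetub, which encodes the liver-secreted protease inhibitor fetuin-B. Its peak (chr16:22919627-22920994) scored 2108 and was centred on the start, with C/EBPalpha and C/EBPbeta regions in all 16 lists. Fetub had 1.16, 0.95 and 2.44 Pol II signal units per bp at 24, 36 and 48 h. Among the other 11 highest, Slc47a1, an exporter of organic cations, scored 909 and Hsd17b13, a lipid droplet enzyme of hepatocytes, scored 887, each with C/EBP regions in all 16 lists. Abcd2, a peroxisomal fatty acid transporter (score 1266), had regions in 11 lists, Ensa, an inhibitor of a protein phosphatase (score 792), in 8, and Ifngr1, the ligand-binding chain of the interferon gamma receptor (score 1185), in 4. Rdm1 (score 1011), a RAD52 motif protein, had regions in 2 lists, both at 0 h. The remaining 2, 4930572O03Rik (score 2074) and AC126681.4 (score 855), had peaks of 14707 and 3850 bp and no C/EBP region.

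Of these 12, Fetub alone lay above 0.5 in Pol II at 36 h, at 0.95, against 17.9% of all measured genes. Hsd17b13 had 0.56, 0.24 and 1.004 at 24, 36 and 48 h, and D10Wsu102e -0.38, -0.15 and 0.57. Vnn3 had 0.14, -0.09 and -0.07 at 24, 36 and 48 h. Over all 464 genes the rank correlation of peak score with Pol II at 36 h was 0.10, a description across genes of 1 library each.

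Genes that Egr1 is known to regulate had a peak at the start in a share near that of all genes. Of 30 measured genes of a list of Egr1 feedback regulators and textbook targets, 1 had an Egr1 peak at the start, 3.33% against 2.22% of all measured genes. That gene was Trp53, the tumour suppressor p53, with a score of 77.1 and no C/EBP region in any list. Its Pol II was 0.35, 1.29 and 0.72 at 24, 36 and 48 h, and its 36 h value was 1.07 higher than at 24 h on the log2(value + 0.5) scale. Egr1 itself had no peak within 1 kb of its start, but C/EBPalpha regions in 8 lists and C/EBPbeta regions in 6, and its Pol II was 3.32, 7.91 and 13.4 at 24, 36 and 48 h. Nab1 and Nab2, the corepressors that Egr1 induces and that restrain it, had no peak either. Nab2 had C/EBP regions in all 16 lists and Pol II of 4.56, 6.16 and 7.02, while Nab1 stayed at 0.28, 0.09 and 0.22. The other 26 genes, among them Egr2, Egr3, Egr4, Gadd45a, Tgfb1, Vegfa, Fn1 and Ccnd1, had no peak at the start. Over all 30 genes, 14 passed the filter on low values for Pol II changes and at 36 h against 24 h 4 were called higher and 1 lower, while 12.9% and 5.42% of the 4853 genes that passed overall were.

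Genes of hepatocyte function were more frequent among the members than over all genes. Egr1 peaks were at the starts of 14 of 30 measured cytochrome P450 genes (46.7%), 7 of 25 plasma and acute phase protein genes (28.0%) and 4 of 8 hepatocyte markers (50%), against 2.22% of all measured genes. Apoa2, Fgb and Serpina1a are counted in both the plasma protein and the marker list, so those shares are not separate. Single peaks were at a listed gene of cholesterol synthesis (Dhcr7, of 23), the proteasome (Psmd4, of 31) and the Mediator and Pol II subunits (Med14, of 32). Among listed genes, 0 peaks were at the starts of 34 DNA replication and G1/S genes, 30 G2/M genes and 36 cytosolic ribosomal protein genes. The same held for 31 translation initiation genes and 21 immediate early genes. The lists do not hold every gene of a class. Rps27a (score 74.0), which encodes a ribosomal protein fusion, and Psmb10 (score 56.2), an immunoproteasome subunit, had a peak but were not listed. There were also 0 at 26 C/EBP and liver transcription factor genes, 21 unfolded protein response genes, 18 circadian clock genes, and the markers of Kupffer cells (8), lymphocytes (7), stellate cells (8), endothelium (8) and cholangiocytes (7). The members and lists were chosen with results of these data known, so these counts describe and do not test. At the 2.22% share of all measured genes, lists of the sizes given here would hold few or no peaks. Counts of 0 or of a single peak therefore do not show fewer peaks than over all genes.

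Cytochrome P450 genes with a peak spanned the subfamilies of drug, steroid and fatty acid oxidation. By the Cyp symbol alone, 21 of 95 measured genes (22.1%) had a peak, and 16 of these 21 had a C/EBP region in at least 1 list. The highest scores were 595 at Cyp3a11, 541 at Cyp3a25, 456 at Cyp2b10 and 382 at Cyp7a1, the rate-limiting enzyme of bile acid synthesis. Cyp3a11, a main drug-oxidising enzyme of mouse liver, had 2.69, 18.7 and 1.86 Pol II units at 24, 36 and 48 h, and lay between -0.07 and 4.48 in the other 5 libraries. Its 36 h value stood above all its other values, and the neighbouring Cyp3a25 had 2.92, 4.09 and 1.05. Cyp7a1 had 3.72, 5.80 and 4.96. Cyp2e1, an ethanol-oxidising enzyme with a score of 118, had 46.4, 18.4 and 35.0, lower by 1.31 on the log2 scale at 36 h than at 24 h.

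Several of these genes had a peak with little Pol II. Cyp2b10 and Cyp2b9 lay below 0 at all of 24, 36 and 48 h, and Cyp4a10 had -0.08, 0.05 and -0.08. Of the 14 listed P450 genes with a peak, 8 lay above 0.5 at each of 24, 36 and 48 h, and of the 16 without a peak 14, 12 and 7 did. C/EBPalpha regions were at 10 of the 14 in at least 1 list and C/EBPbeta regions at 8, and 0 of the 14 had regions in all 16. Reads of Cyp2c50 and Cyp2c54, of Cyp2d9 and Cyp2d10 and of other near-identical copies may have been shared in the authors' mapping, and values of single copies are uncertain.

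Plasma protein genes with a peak had more constant C/EBP regions than the listed P450 genes with a peak, but not than plasma protein genes without one. Saa2, a serum amyloid A of the acute phase response, had the highest score of the list, 551 from a peak of 4040 bp. It had C/EBP regions in 15 of the 16 lists. Its Pol II was 2.10, 19.7 and 39.0 at 24, 36 and 48 h, after 254 at 3 h. Serpina1a, one of several near-identical alpha-1-antitrypsin copies, scored 431 with no C/EBP region in any list and Pol II of 2.60, 2.45 and 2.48. All of Serpina1a, Serpina1b, Serpina1c, Serpina1d and Serpina1e had a peak, with scores from 309 to 495, and their single values are uncertain. Orm1, the acute phase protein orosomucoid, scored 216 with regions in all 16 lists, and its Pol II was 13.0, 19.4 and 28.2. Fgb, the fibrinogen beta chain, and Cfb, complement factor B, also had all 16, with scores of 75.9 and 62.5. Of the 7 genes, 3 had regions in all 16 lists, as had 9 of the 18 plasma protein genes without an Egr1 peak.

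C/EBP regions were more frequent at the starts with an Egr1 peak than over all gene starts, at every time and for both factors. Each C/EBP list was cut to its 20061 highest-scoring regions, the length of the shortest, and a start counted when a region centre lay within 1 kb. C/EBPalpha regions were at 183 of the 464 Egr1 starts at 0 h (39.4%, against 9.88% of all measured starts), 187 at 3 h (40.3% against 12.7%), 167 at 8 h (36.0% against 9.42%) and 174 at 16 h (37.5% against 12.5%). They were at 175 at 24 h (37.7% against 8.08%), 188 at 36 h (40.5% against 13.2%), 189 at 48 h (40.7% against 14.1%) and 183 at 168 h (39.4% against 13.7%). The share at Egr1 starts ranged over 4.74 points between its lowest at 8 h, 36.0% (Wilson interval 31.8 to 40.5%), and its highest at 48 h, 40.7% (36.4 to 45.3%).

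C/EBPbeta regions were at 168 Egr1 starts at 0 h (36.2%, against 9.23% of all measured starts), 171 at 3 h (36.9% against 19.5%), 183 at 8 h (39.4% against 11.3%) and 174 at 16 h (37.5% against 11.8%). They were at 169 at 24 h (36.4% against 8.77%), 190 at 36 h (40.9% against 18.3%), 177 at 48 h (38.1% against 13.2%) and 196 at 168 h (42.2% against 12.8%). At Egr1 starts C/EBPbeta thus stayed between 36.2% and 42.2%, while other starts had 8.14% at 24 h and 19.1% at 3 h as their extremes. The difference between Egr1 starts and other starts was therefore smallest at 3 h, 17.8 points, and largest at 168 h, 30.1 points. Whether the C/EBP libraries at 3 and 36 h differ from the others for technical reasons was not tested.

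**Figure D2:**
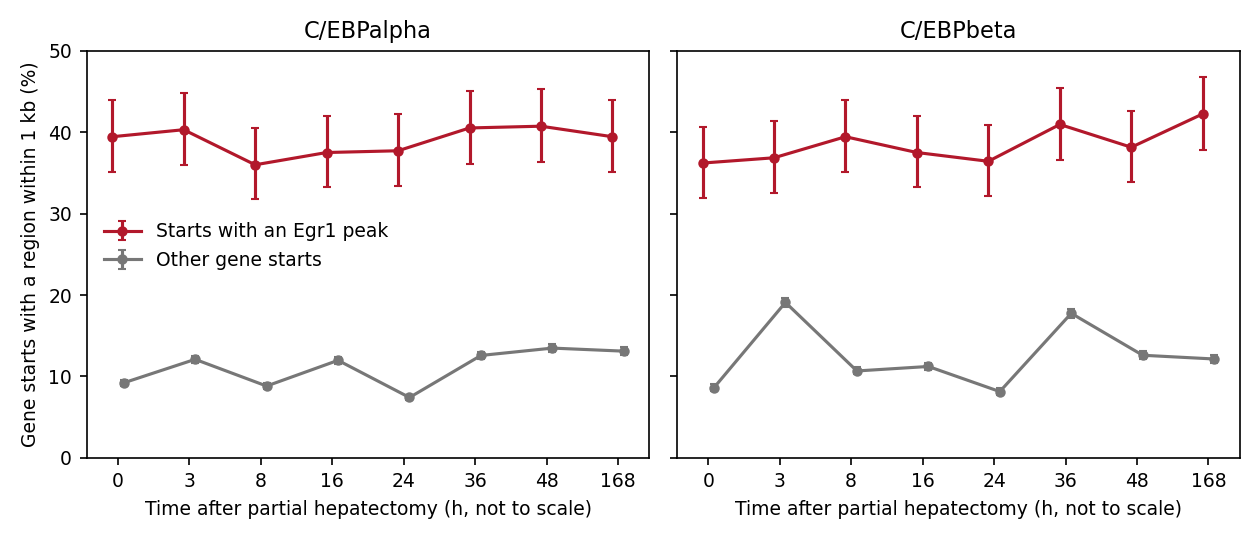
Percentage of gene starts with a C/EBPalpha (left) or C/EBPbeta (right) region within 1 kb (y axis) at 8 times after partial hepatectomy (x axis in h, not to scale), with 464 starts with an Egr1 peak in red and 20469 other starts in grey. Bars are Wilson 95% intervals, which cover counting error only. The red points lie between 36.0% and 42.2% at all times and above the grey points, which lie between 7.41% and 19.1%.

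The same starts tended to recur from list to list. Of the 464 Egr1 starts, 289 (62.3%) had a C/EBP region in at least 1 of the 16 lists, against 5632 of 20469 other starts (27.5%). All 8 C/EBPalpha lists had a region at 107 Egr1 starts (23.1%, against 3.85% of other starts), and all 8 C/EBPbeta lists at 91 (19.6% against 3.95%). All 16 had one at 83 Egr1 starts, against 629 other starts. Of the Egr1 starts with any region, 87.2% had regions of both factors, 6.57% of C/EBPalpha alone and 6.23% of C/EBPbeta alone. Of other starts with any region, 70.1% had both, 8.35% C/EBPalpha alone and 21.5% C/EBPbeta alone.

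C/EBPbeta regions present at 36 h and absent from the 24 h list were at 54 Egr1 starts (11.6%), against 2246 other starts (11.0%). Regions present at 24 h and absent at 36 h were at 33 Egr1 starts (7.11%), against 279 other starts (1.36%). In both sets more starts had the region in the 36 h list alone than in the 24 h list alone, and the difference between the sets was not tested.

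**Figure D3:**
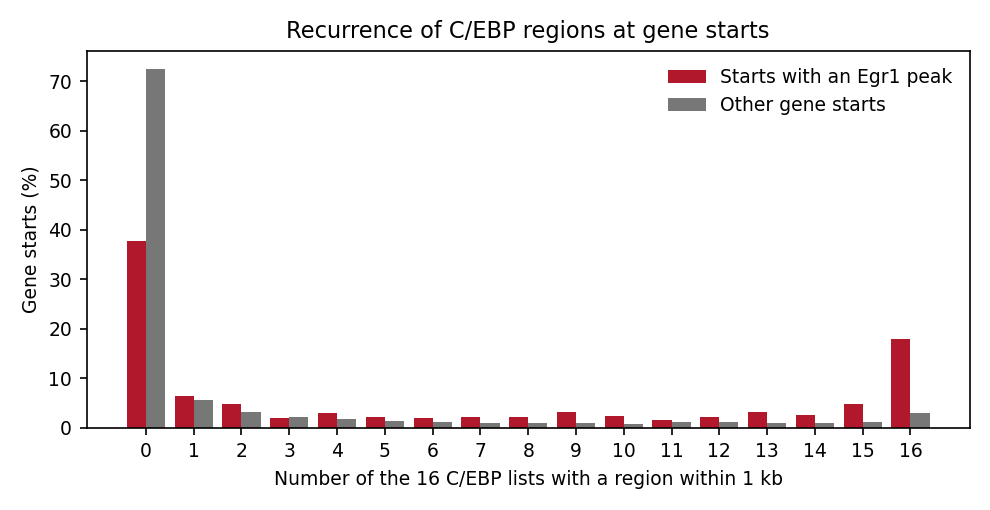
Percentage of gene starts (y axis) by the number of the 16 C/EBP lists with a region within 1 kb (x axis), for starts with an Egr1 peak (red, left bar) and other starts (grey, right bar). No region in any list was found at 175 of the 464 red and 14837 of the 20469 grey starts, and all 16 lists at 83 red and 629 grey starts.

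C/EBP regions are more often found at transcribed genes, and the comparison was repeated among genes with Pol II above 0.5 at 36 h. Among these, C/EBPalpha regions at 36 h were at 50.7% of 144 Egr1 starts, against 27.3% of 3600 other starts. C/EBPbeta regions at 36 h were at 50% of the Egr1 starts, against 36.0% of other starts. Over the 8 times the ranges were 45.8 to 53.5% against 17.1 to 29.5% for C/EBPalpha, and 43.1 to 54.2% against 18.8 to 39.1% for C/EBPbeta. The smallest difference was 8.83 points, for C/EBPbeta at 3 h.

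The share of peaks with a C/EBP region inside them had overlapping ranges at starts and elsewhere. A C/EBPalpha region centre lay inside 35.9 to 40.5% of Egr1 peaks at gene starts over the 8 times, against 34.1 to 40.7% of Egr1 peaks elsewhere. For C/EBPbeta the ranges were 35.9 to 41.4% at starts against 28.8 to 40.5% elsewhere. The intervals lay apart for C/EBPbeta at 3 h, 35.9% (Wilson 31.6 to 40.4%) at starts against 28.8% (27.8 to 29.7%) elsewhere, and for C/EBPalpha at 48 h, 39.6% (35.2 to 44.2%) against 34.1% (33.1 to 35.1%). The distance between the centres differed more. The median distance from the peak centre to the C/EBPalpha centre inside it was 106 to 132 bp at starts against 70.5 to 79.2 bp elsewhere, and for C/EBPbeta 111 to 138 bp against 69.2 to 79.5 bp. Peaks at starts were also wider, as given above, and the part of width in these distances was not tested.

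Higher-scoring peaks had more starts with constant C/EBP regions. With the genes split by score into 3 groups, all 16 lists had a region at 21 of 155 genes in the lowest-scoring group, 23 of 154 in the middle and 39 of 155 in the highest. The share with a C/EBPbeta region at 36 h had no such order, at 41.9%, 35.7% and 45.2%. The number of lists and the peak score had a rank correlation of 0.06 over the 464 genes, near 0.

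Genes with an Egr1 peak at the start were more often transcribed than other genes, and to a similar degree at 24, 36 and 48 h. Pol II lay above 0.5 at 32.3% of Egr1 genes at 24 h, against 18.0% of other genes. The shares were 31.0% against 17.6% at 36 h, and 30.4% against 16.5% at 48 h. Medians were low in both sets, at 0.14, 0.08 and 0.07 for Egr1 genes at 24, 36 and 48 h, against -0.05, -0.05 and -0.07 for other genes. Most of the members therefore had little or no Pol II over the gene body, and 36.0% of them lay below 0 at 36 h, against 56.0% of other genes.

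**Figure D4:**
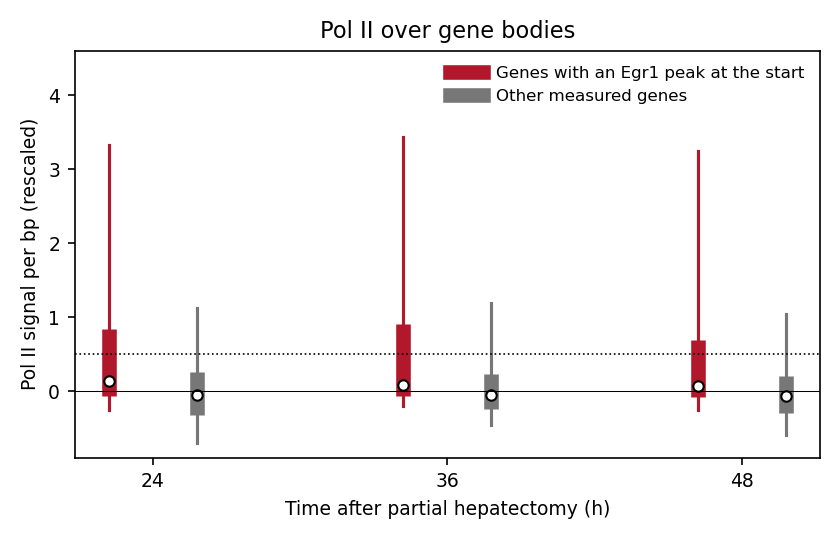
Rescaled Pol II signal per bp over the gene body (y axis) at 24, 36 and 48 h (x axis) for 464 genes with an Egr1 peak at the start (red) and 20469 other measured genes (grey). Thick bars span the quartiles, thin lines the 10th to 90th percentiles, circles mark medians, and the dotted line is the level of 0.5. The upper quartile is 0.84, 0.91 and 0.69 in red against 0.26, 0.23 and 0.21 in grey, and the middles overlap.

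Pol II was also set beside genes with like numbers of C/EBP lists. Among genes with regions in 1 to 15 lists, Pol II lay above 0.5 for 34.5%, 33.5% and 29.6% of 206 Egr1 genes at 24, 36 and 48 h, against 32.9%, 32.1% and 31.0% of 5003 others. Among genes with all 16, the shares were 57.8%, 48.2% and 57.8% of 83 Egr1 genes, against 46.4%, 46.4% and 42.8% of 629 others. Among genes with no C/EBP region in any list they were 17.7%, 20% and 18.3% of 175 Egr1 genes, against 11.8%, 11.5% and 10.5% of 14837 others. The median Pol II of these 175 Egr1 genes was exactly 0 at 24, 36 and 48 h, and this class includes genes with 0 in every Pol II library. Shares were thus close for 1 to 15 lists at the 3 times and for all 16 lists at 36 h, and higher for the Egr1 genes elsewhere. Across the 464 Egr1 genes, Pol II at 36 h and the number of C/EBP lists had a rank correlation of 0.18. From the lowest- to the highest-scoring group of peaks, 23.2%, 33.1% and 36.8% of genes lay above 0.5 at 36 h.

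The Egr1 library was made at 36 h, and Pol II around that time was compared between libraries. Of the 464 genes, 177 lay above 0.5 in at least 1 of the 3 libraries, as did 4853 of all measured genes. A gene was called when it differed by 1 or more on the log2(value + 0.5) scale, a fold of 2. At 36 h against 24 h, 16 of the 177 were called higher (9.04%, against 12.9% of all 4853) and 13 lower (7.34% against 5.42%). The median change was -0.18 for the Egr1 genes and -0.03 for all. At 48 h against 36 h, 10 were higher (5.65% against 3.28%) and 14 lower (7.91% against 8.72%), with medians of -0.02 and -0.04. At 48 h against 24 h, 13 were higher (7.34% against 7.09%) and 18 lower (10.2% against 6.14%), with medians of -0.22 and -0.07.

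With these settings fewer of the Egr1 genes than of all genes were called higher at 36 h against 24 h and more were called lower. Each of these calls rests on 1 library a time, and neither order held under every setting. For higher calls it turned with a pseudocount of 2 (3.95% of Egr1 genes against 2.27% of all) and with no filter on low values (3.45% against 3.00%). For lower calls it turned with a pseudocount of 0.05 (15.8% against 16.3%). Without the rescaling between libraries the 36 h against 24 h counts turned to 27 higher (15.1% of 179, against 20.1% of all 4864 genes) and 7 lower (3.91% against 3.21%), and the median to 0.13, with that of all genes at 0.31.

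Genes higher after 24 h included acute phase and histone genes. Among the 114 Egr1 genes above 0.5 at all of 24, 36 and 48 h, the 6 with the highest mean change were Saa2, Hist1h2ai, Fxyd1, Lbp, Ifitm2 and Hist1h3f. Saa2 is described above, with a mean change of 3.44. Hist1h2ai, a core histone gene made mainly in S phase, had 1.70, 10.3 and 7.27 at 24, 36 and 48 h, and Hist1h3f had 6.09, 14.9 and 12.1. Reads of such multicopy histone genes may be shared between copies. Fxyd1, a regulator of the sodium pump, had 0.53, 3.97 and 3.05. Lbp, which binds bacterial lipopolysaccharide, had 3.16, 5.91 and 10.7, and Ifitm2, an interferon-induced membrane protein, had 3.61, 9.30 and 7.62.

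Genes lower after 24 h included transporters and enzymes of hepatocytes. The 6 with the lowest mean change were Ugt2a3, Slco1b2, Hao1, Rps27a, Cps1 and Lyrm5. Cps1, the entry enzyme of the urea cycle, had 20.3, 10.5 and 8.91 at 24, 36 and 48 h. Ugt2a3, a glucuronosyltransferase, had 2.92, 0.94 and 1.07, Slco1b2, an uptake carrier of bile acids and drugs, had 4.28, 1.28 and 2.13, and Hao1, a peroxisomal glycolate oxidase, had 3.11, 0.76 and 1.67. Rps27a, a fusion of ubiquitin and a ribosomal protein, had 4.25, 1.14 and 2.63, but its start shared a peak with another gene whose start was nearer. Lyrm5 had 2.08, 0.998 and 0.60. The lowest level of each was at 36 h for 4 of the 6 and at 48 h for Cps1 and Lyrm5.

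**Figure D5:**
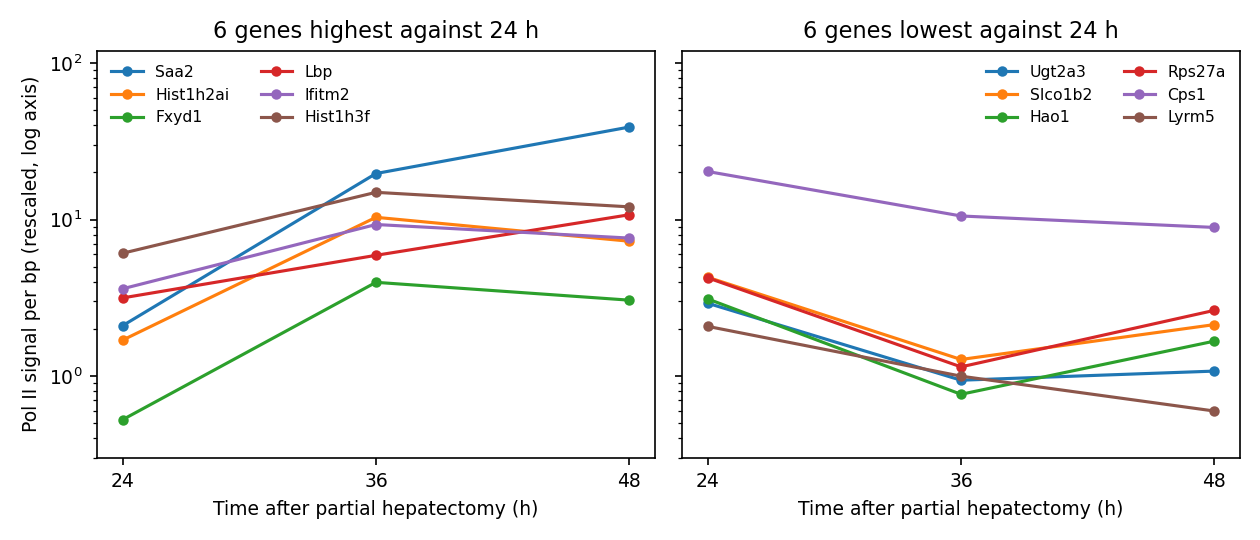
Rescaled Pol II signal per bp (y axis, log scale) at 24, 36 and 48 h (x axis) for the 6 Egr1 genes with the highest (left) and the 6 with the lowest (right) mean change against 24 h; each line is 1 gene and each point 1 library. The genes were chosen by these values, from Saa2 at 2.10, 19.7 and 39.0 to Cps1 at 20.3, 10.5 and 8.91.

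C/EBP regions were not confined to either direction. Lbp, Ifitm2 and Hist1h3f among the higher and Cps1 and Lyrm5 among the lower had regions in all 16 lists, while Hist1h2ai and Slco1b2 had none. The 6 Egr1 genes with the highest Pol II at 36 h were Fgb, 4930558J22Rik, Apoa2, Psmb10, Mat1a and Fabp1. Fgb had 44.0, 32.8 and 83.4 at 24, 36 and 48 h, and was 1.33 higher on the log2 scale at 48 h than at 36 h. Apoa2, an apolipoprotein of high-density lipoprotein, had 31.1, 26.4 and 24.5, Mat1a, the liver enzyme that makes S-adenosylmethionine, 35.4, 22.8 and 19.5, and Fabp1, the liver fatty acid binding protein, 36.9, 22.7 and 40.3. Psmb10, a subunit of the immunoproteasome, had 15.9, 24.2 and 18.0. Peak scores of these 6 ran from 56.2 at Psmb10 to 123 at Mat1a, apart from 378 at 4930558J22Rik. The median over all 449 peaks at starts was 108, and Psmb10, Fgb, Apoa2 and Fabp1 lay below it.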

How the data were processed

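ChIP-seq files of Egr1, C/EBPalpha, C/EBPbeta and Pol II were used, 25 files in all for 26 samples, grouped by the titles, which give antibody and time. Per the submitters' processing notes the tools were Bowtie 0.12.7 and MACS 1.4.1, with mm9 as the build and no role stated for either tool. Egr1 peaks carry a score that the authors' deposited list gives per peak, and C/EBP regions a score scaled within each deposited list. The scores ranked regions within 1 list only. The deposited Pol II files give a signed signal per gene, which by its values is a sum over the gene body that begins near 500 bp downstream of the start. The sources used here do not give its normalisation, peak calling controls, filters or read depth.

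Gene rows with a width of 500 bp or more and a unique name gave 20933 genes of 31804, with starts moved back by 500 bp. Signal was divided by width and rescaled between libraries with median-of-ratios factors from the 1472 genes that lay above 0.5 in each of the 8 Pol II libraries. Changes are differences of log2(value + 0.5) with values below 0 set to 0, among genes above 0.5 in at least 1 of the 3 libraries, and a difference of 1 was called. With the pseudocount, changes of low genes are understated. Shares carry Wilson 95% intervals. Computation used Python 3.11.15, numpy 2.4.6, pandas 2.3.3 and scipy 1.17.1, and the matching and scaling steps were tested on simulated data. Of the 464 genes, 402 matched a name in the RefSeq gene table of GRCm38.p6 and 392 were protein-coding there. Promoter sequences are from RefSeq.

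Named genes were those at the 12 highest-scoring peaks, all of an Egr1 target list, the 6 highest and 6 lowest by mean Pol II change, the 6 highest by Pol II at 36 h, the 2 peaks on either side of the 1 kb limit and the 3 highest-scoring members of each gene list. Genes with GCGTGGGCG, other P450 and serpin genes and the 4 printed promoters were chosen after their values were seen. The members and the 20 gene lists were chosen with earlier results of these data known. Alternatives changed the window, peak score and width, list length, pseudocount, filter and rescaling.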

Additional observations from a re-analysis of the deposited data

How the results depend on the processing

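No paired analysis was possible because each antibody and time has 1 library, and leaving out a replicate was not possible for the same reason. A window of 2 kb gave 703 peaks at 708 genes, and a score of 100 or more 245 peaks at 248 genes. At 36 h the share of Egr1 starts with a C/EBPalpha region was 48.5% with full lists, 30.0% within 500 bp and 50.7% among transcribed genes, and with a C/EBPbeta region 52.2%, 32.1% and 50%. The difference to other starts was 20.9 points (C/EBPalpha) and 18.2 points (C/EBPbeta) within 500 bp, and 23.4 and 14.0 points among transcribed genes. With peaks scoring 100 or more, 38.7% of genes at 24 h and 37.1% at 36 h lay above 0.5 in Pol II, with medians of 0.21, 0.18 and 0.12 at 24, 36 and 48 h. The median Pol II change at 36 h against 24 h was 0.13 without rescaling, against -0.18 with it, and 0 with no filter on low values, where the median of all genes was also 0. At 48 h against 36 h it was -0.34 without rescaling, and at 48 h against 24 h 0 with no filter. Except at 48 h against 36 h, each count of called Egr1 genes is followed by its share of the Egr1 genes. The share of all genes called under the same setting comes next. Counts that stayed within the limits set for them are not all listed. At 36 h against 24 h there were 27 higher (15.1%, all genes 20.1%) and 7 lower (3.91%, all 3.21%) without rescaling. With a pseudocount of 0.05 there were 28 higher (15.8%, all 19.5%) and 28 lower (15.8%, all 16.3%). With a pseudocount of 2 there were 7 higher (3.95%, all 2.27%) and 3 lower (1.69%, all 0.206%). Of 87 genes above 2, 9 were higher (10.3%, all 13.2%) and 9 lower (10.3%, all 3.47%). The median change of these 87 was -0.30, and that of all genes above 2 was 0.06. Of 109 with a score of 100 or more, 12 were higher (11.0%, all 12.9%) and 8 lower (7.34%, all 5.42%). At 48 h against 36 h the share in brackets is that of all genes alone. Without rescaling there were 6 higher (all 2.04%) and 23 lower (all 14.4%). With a pseudocount of 0.05 there were 23 higher (all 9.25%) and 29 lower (all 16.2%). With 2 there were 1 higher (all 0.598%) and 1 lower (all 1.11%). Among genes above 2 there were 4 higher (all 3.76%) and 6 lower (all 8.16%). With a score of 100 or more, 9 were lower (all 8.72%). At 48 h against 24 h there were 23 higher (13.0%, all 13.3%) and 31 lower (17.5%, all 15.1%) with 0.05. With 2 there were 6 higher (3.39%, all 1.42%) and 2 lower (1.13%, all 0.392%). Among genes above 2 there were 7 higher (8.05%, all 8.85%) and 9 lower (10.3%, all 4.92%). With a score of 100 or more, 8 were higher (7.34%, all 7.09%) and 14 lower (12.8%, all 6.14%). Fewer genes and the pseudocount itself set the smaller counts by construction, and the cause of the other shifts was not tested. With the peak centre in the window, GCGTGGGCG was in 10% and GCGNGGGCG in 20.8% of windows. Of 99 alternative values, 50 stayed within the limits set for them and 49 moved. C/EBP regions were more frequent at Egr1 starts than at other starts under each alternative computed for both. Unknown depth limits every comparison between times: list length and Pol II signal both move with it, and 1 library for each time leaves a batch and a time that cannot be told apart.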

Other observations

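Other gene families at the Egr1 starts were described by symbol. Of 22 measured Serpina genes, 6 had a peak (27.3%), among them Serpina11 with a score of 653 and C/EBP regions in all 16 lists. Solute carriers had 8 peaks among 342 genes (2.34%) and zinc finger genes with the Zfp symbol 5 among 284 (1.76%), both close to the 2.22% of all measured genes. Olfactory receptor genes had 0 among 169, and vomeronasal receptor genes 1 among 26. Beside a share of 2.22% over all measured genes these counts are small, and they were not tested.

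Of the 449 peaks at starts, 7 were wider than 3 kb (1.56%), against 202 elsewhere (2.14%). The widest stood at AC148089.8-2 (17433 bp) and 4930572O03Rik (14707 bp), with Pol II of -0.01 and -0.03 at 36 h. The wide peaks at Saa2 (4040 bp) and Hist1h2ai (3008 bp), lay in clusters of similar genes with Pol II of 19.7 and 10.3 at 36 h.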
